A study of Mus musculus with 8 samples.

Results

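Sorted stromal cells of the pancreas were compared here with those of skeletal muscle, gene by gene. The comparison took every gene of the deposited tables that lies outside chromosomes X and Y, which was 21556 of 22558 genes. The pancreas group held FAP+ cells sorted by flow cytometry from dissociated pancreas (2 libraries), and the muscle group held FAP+ cells sorted in the same way from dissociated skeletal muscle (2 libraries). FAP, fibroblast activation protein, is a surface serine protease of fibroblasts and related stromal cells. The series also holds 2 libraries of FAP+ cells from visceral adipose tissue and 2 of mouse embryonic fibroblasts (MEFs) sorted as FAP-negative, cultured for 3 passages and sorted again. Its design text describes isolation in duplicate experiments, and it contrasts pancreas, as an epithelial organ, with muscle and fat as mesenchymal tissues. The sources used here give no strain, age or treatment, do not say which muscles were taken or how many animals a library pools, and call the pancreas samples stellate cells.

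Fibroblasts of different organs share a programme of matrix secretion, but they descend from different parts of the embryonic mesoderm. The mesenchyme around gut, spleen and pancreas comes from the visceral (splanchnic) layer and is patterned by homeobox, GATA, T-box and bHLH transcription factors of that layer. The connective tissue of limb and body-wall muscle comes from the somatic layer and somites, uses other T-box and paired-type factors, and borders tendon. Hox genes, arranged in clusters A to D, are switched on from low to high paralog number along the head-to-tail and limb axes, and adult fibroblasts keep part of that pattern. Pancreatic stellate cells are vitamin A storing mesenchymal cells of the exocrine pancreas.

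Most genes were at similar levels in both populations. Of 14358 genes with enough fragments to test, 11985 (83.5%) differed by less than 2-fold in the fitted estimate. At an adjusted p below 0.05, 525 genes were called different, 3.66% of those tested. Of these, 222 (1.55%) were higher in pancreas, by a median of 8.26-fold, and 303 (2.11%) were higher in muscle, by a median of 7.31-fold. The adjusted p is Benjamini-Hochberg over all genes in edgeR's quasi-likelihood test, and CPM is the fragment count scaled to library size. At least 10-fold differences were found for 92 genes higher in pancreas and 118 higher in muscle. In all 525 called genes both libraries of the higher group lay above both of the lower group, which held for 55.4% of all genes tested. The gene nearest to the threshold on its far side had an adjusted p of 0.0503. As background for the list counts below, 2003 of the 14358 genes had an unadjusted p below 0.05 in the edgeR test. DESeq2, used as an alternative, called 976 of 20761 genes. The p-values measure only the spread between these libraries, and in bulk RNA fewer cells of a type and less RNA per cell cannot be told apart.

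**Figure D1:**
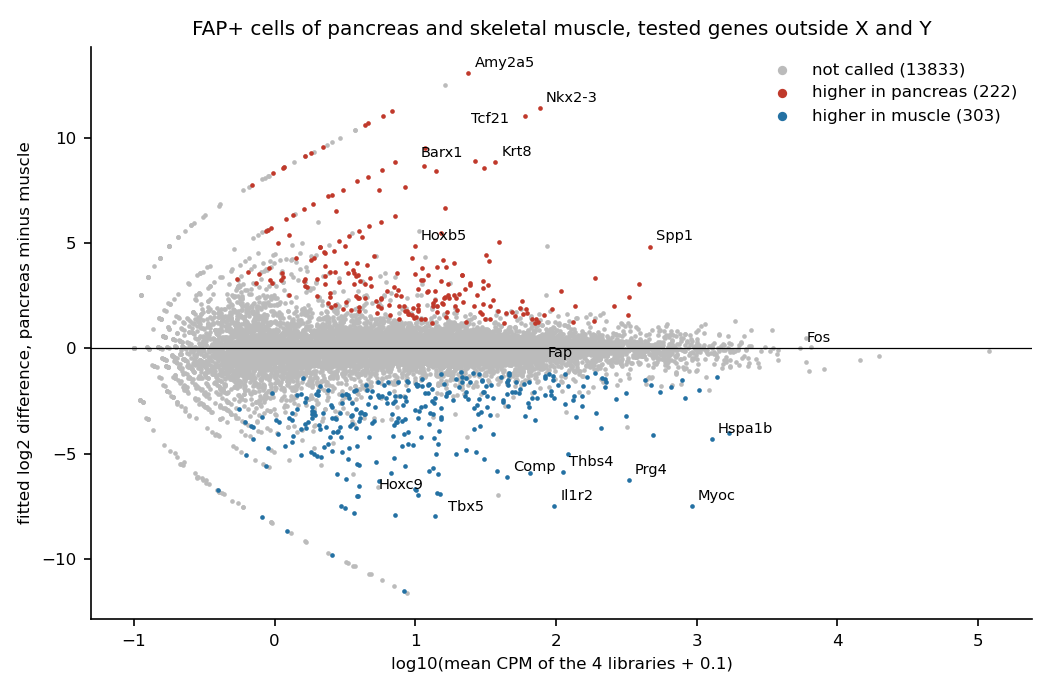
Fitted log2 difference (pancreas minus muscle, vertical axis) against log10 of the mean CPM of the 4 libraries plus 0.1 (horizontal axis) for every tested gene; red points were called higher in pancreas (222 genes), blue points higher in muscle (303) and grey points were not called. The cloud is centred on 0, and on the curved outermost edges, where a tissue has few or 0 fragments, fitted values depend on the prior count.

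The pancreas libraries held 17593056 and 17102944 estimated fragments and the muscle libraries 15516319 and 22813325. Across genes, Pearson's r of log2 CPM was 0.973 between the pancreas libraries, 0.976 between the muscle libraries and 0.919 to 0.932 between tissues. With limma on FPKM, the share of calls that were higher in pancreas was 51.1 to 54.1%, against 42.3% here. The number of calls depended on each library: it was 54 without pancreas 1, 80 without pancreas 2, 83 without muscle 1 and 76 without muscle 2, where the lone library of a group is assumed to vary like the other groups. It was 1166 and 1165 without an adipose library and 260 and 271 without a MEF library; all 8 libraries share one estimate of the spread. Of the 140 called genes chosen by rule for description, 22 stayed called whichever of the 8 libraries was left out, among them Amy1, Barx1, Comp, Egflam, Fbn2, Hand2, Hoxa10, Hoxa9, Hoxb5, Hoxc6, Hoxc8, Hoxc9, Irx3, Isl1, Myoc, Tbx15, Tbxa2r, Tcf21, Thbs4 and Wt1. The other 118 lost their call without at least 1 of the 4 libraries.

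The sort marker did not differ by the test, although both muscle libraries lay above both pancreas libraries. Fap was at 55.4 and 65.6 CPM in the pancreas libraries and 88.8 and 107 CPM in the muscle libraries, a difference that did not pass (1.62-fold higher in muscle, adjusted p = 0.713). Dpp4, its closest relative among the dipeptidyl peptidases and a marker of adventitial fibroblasts, was at 82.7 and 126 CPM in pancreas against 147 and 129 in muscle (adjusted p = 0.885). Of 14 fibroblast markers tested, 0 were called in the main edgeR fit of all 8 libraries, with 2 at an unadjusted p below 0.05. DESeq2 called 1 of them. The edgeR fit of only the 4 pancreas and muscle libraries called 3 higher in muscle and 0 in pancreas. The summed level of the 14 was 31661 and 35809 CPM in pancreas and 52082 and 47154 in muscle. Pi16, another adventitial fibroblast gene, stood at 1958 and 1919 CPM in pancreas against 4278 and 2920 in muscle (adjusted p = 0.333), and Clec3b, which encodes tetranectin, at 2486 and 2408 CPM in pancreas against 2295 and 2217 in muscle (adjusted p = 0.988). Gsn, the actin-severing gelsolin, took 10.9% to 14.8% of the fragments of each of the 4 libraries.

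Genes of stellate cells gave a mixed picture in the pancreas libraries. Lrat, the acyltransferase that makes retinyl esters for storage, was at 0.104 and 0.312 CPM in pancreas and had too few fragments to test. Gfap, an intermediate filament gene used as a stellate marker, was at 0.104 and 0.468 CPM. Des (desmin) was at 41.6 and 34.6 CPM in pancreas against 45.9 and 58.4 in muscle, and Cygb, a globin of stellate cells, at 577 and 838 CPM in pancreas against 345 and 367 in muscle; neither passed (adjusted p = 0.653 and 0.227). Of 30 retinoid and stellate genes tested, 1 was higher in pancreas and 2 in muscle, with a median log2 difference of -0.28 against 0.00 over all genes. Aldh1a2, which makes retinoic acid, was at 98.3 and 90.8 CPM in pancreas against 23.9 and 15.4 in muscle, 4.82-fold higher in pancreas (adjusted p = 0.00914). Its relative Aldh1a3 went the other way, at 60.5 and 37.8 CPM in muscle against 14.5 and 14.3 in pancreas (3.41-fold, adjusted p = 0.0235), as did Crabp1, a cytoplasmic retinoic acid carrier, at 1.72 and 3.99 CPM in muscle against 0.208 and 0.26 in pancreas (12.1-fold). Aldh1a2 passed in 0 of the 4 fits that left out a pancreas or muscle library, Aldh1a3 in 0 and Crabp1 in 1.

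Transcripts of other pancreatic cells were present in the pancreas libraries and more so in library 1. Of 22 acinar genes tested, 20 were higher in pancreas and 1 in muscle. Amy2a5, a pancreatic amylase, was at 66.6 and 28.6 CPM in pancreas and at 0 fragments in both muscle libraries, at least 297-fold higher against a floor of 3 fragments per library. Cela2a, an elastase, was at 32.6 and 13.9 CPM in pancreas, with a ratio of 905 (95% counting interval 162 to 35782). The acinar list without Amy1 summed to 297 and 140 CPM in pancreas and 2.04 and 1.97 in muscle. The 20 called acinar genes were 1.59 to 2.82 times higher in pancreas 1 than in pancreas 2. Amy1, the salivary and liver amylase, was the exception at 60.4 and 46.5 CPM in muscle against 5.21 and 3.07 in pancreas (12.9-fold higher in muscle, adjusted p = 0.00363); amylase genes share sequence, so their counts are uncertain. When pancreas 1, pancreas 2, muscle 1 or muscle 2 was left out in turn, 0, 6, 0 and 0 of the 20 acinar calls passed.

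Epithelial and mesothelial genes were also higher in pancreas, and again unequal between its libraries. Krt8, a keratin of simple epithelium and mesothelium, was at 111 and 35.9 CPM in pancreas against 0.191 and 0.129 in muscle, and its partner Krt18 at 97 and 26.5 CPM in pancreas against 0.191 and 0.129 in muscle. Of 14 duct and epithelial genes tested 6 were higher in pancreas, and of 13 mesothelial genes 8 were, with 0 of either list higher in muscle by edgeR, by DESeq2 or at an unadjusted p below 0.05. Spp1, osteopontin, was at 1360 and 443 CPM in the pancreas libraries and 48.1 and 15.4 CPM in the muscle libraries (28.4-fold, adjusted p = 0.0172) and made up most of the duct list. Without Spp1 that list summed to 331 and 104 CPM in pancreas and 13.1 and 10 in muscle. The mesothelial list summed to 344 and 161 CPM against 20.9 and 35.1, and to 302 and 234 in adipose. Without pancreas 1, pancreas 2, muscle 1 or muscle 2, 1, 6, 0 and 0 of the 6 duct calls and 3, 6, 2 and 2 of the 8 mesothelial calls passed. The acinar, duct, endocrine and mesothelial lists together held 33 of the 222 genes higher in pancreas (14.9%). Of 7 endocrine genes tested, 1 was higher in pancreas, Isl1, with a median log2 difference of 3.02. At an unadjusted p below 0.05 there were 4 higher in pancreas, DESeq2 called 2 and limma on FPKM called 4. The endocrine list summed to 30.3 and 27.1 CPM in pancreas and 4.91 and 6.35 in muscle. Of the islet hormones, Ppy was at 8.08 and 0.935 CPM in pancreas and 0 fragments in muscle, and did not pass (adjusted p = 0.109). Ins2 was at 2.61 and 5.56 CPM in pancreas against 3.06 and 2.83 in muscle, and Gcg at 0.886 and 0.779 CPM in pancreas.

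Some red cell and vessel genes were higher in the muscle libraries, while the summed muscle fibre genes overlapped between tissues. Hbb-bs, a beta globin of red cells, was at 23.4 and 31.1 CPM in muscle against 0 and 0.208 in pancreas (249-fold higher in muscle, adjusted p = 0.026), and globin genes share sequence. The other red cell gene tested, Hba-a2, did not pass at 59.4 and 94.2 CPM in muscle against 0.104 and 1.09 in pancreas (adjusted p = 0.0547). Of 20 endothelial genes tested, 17 had a fitted difference below 0, towards muscle, and the median log2 difference was -3.17. Of the 20, 4 were called higher in muscle and 1 in pancreas. DESeq2 called 14 and 1, and as many had an unadjusted p below 0.05. The vessel receptor Flt1 was at 3.95 and 14 CPM in muscle against 0.782 and 0.727 in pancreas, with muscle 2 the higher. Plvap, of fenestrated vessels, was at 43.6 and 46.3 CPM in pancreas against 11 and 17.7 in muscle. The endothelial list summed to 149 and 306 CPM in muscle and 126 and 130 in pancreas. Much of the pancreas sum came from Plvap and from Tek, at 58 and 68.7 CPM in pancreas against 86.3 and 102 in muscle. Muscle fibre genes summed to 116 and 151 CPM in muscle and 141 and 122 in pancreas, with the groups overlapping and Tnnt3 and Pygm the highest members. By gene, 17 of those tested were fitted below 0, towards muscle, with a median log2 difference of -0.93. At an unadjusted p below 0.05 there were 8 higher in muscle and 1 in pancreas. DESeq2 called 4 and 1, and limma on FPKM 6 and 1. Of 25 tested, 3 were higher in muscle, among them Acta1, skeletal actin, at 8.42 and 9.91 CPM in muscle against 0.886 and 0.779 in pancreas, and 1 in pancreas, Actn3 at 20.8 and 15.6 CPM in pancreas against 1.53 and 1.59 in muscle. The satellite cell factors Pax7, Myf5, Myod1 and Myog had too few fragments to test; of the 4 list members tested, Heyl was higher in pancreas and Musk in muscle. The highest level of any of those factors was 0.472 CPM (Pax7 in muscle 2). Leukocyte, pericyte, Schwann cell and adipocyte lists had 0 calls in the main edgeR fit, with 0, 3, 1 and 3 genes at an unadjusted p below 0.05. DESeq2 called 0, 2, 0 and 0 of them. With upper quartile scaling or no low-count filter, edgeR called 1 pericyte gene higher in pancreas. With only the 4 pancreas and muscle libraries it called 3 pericyte genes higher in pancreas and 1 in muscle. That fit also called 1 adipocyte gene higher in muscle. Ptprc, the pan-leukocyte CD45, did not exceed 0.386 CPM.

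**Figure D2:**
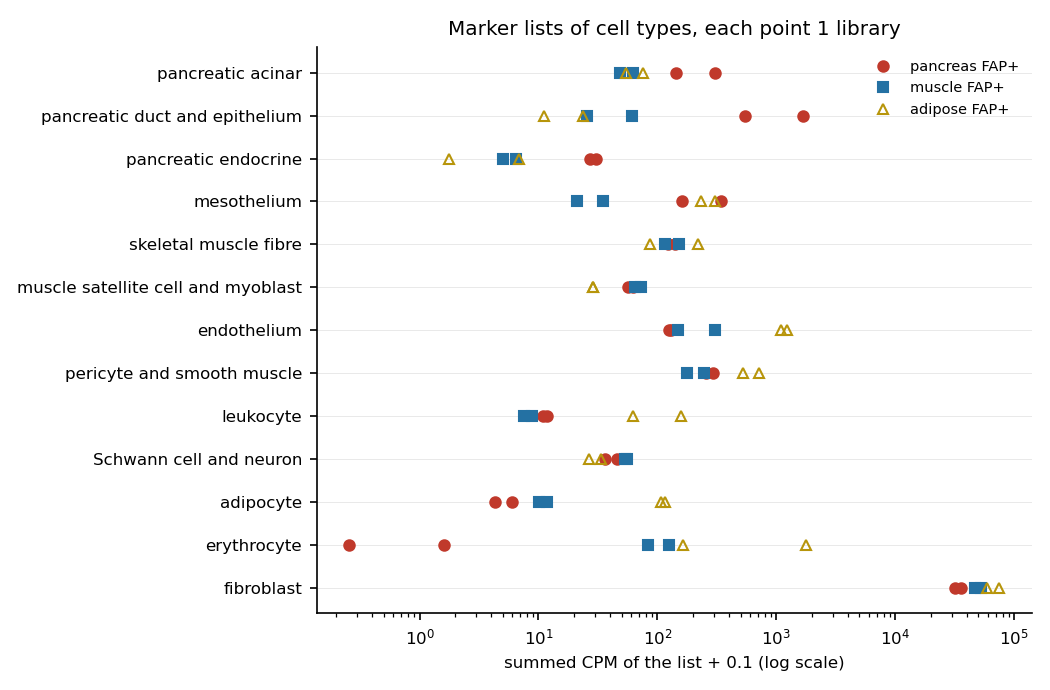
Summed CPM plus 0.1 of 13 marker lists (log horizontal axis), each point 1 library; red circles are pancreas, blue squares muscle and open triangles adipose FAP+ cells. Pancreas lies to the right of muscle for the acinar, duct, endocrine and mesothelial lists, and by less for the pericyte and leukocyte lists. Muscle lies to the right of pancreas for the erythrocyte, endothelial, satellite cell, Schwann cell, adipocyte and fibroblast lists. The muscle fibre list overlaps between these tissues, and the fibroblast list is by far the highest in every library.

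Factors of the visceral mesoderm stood out in pancreas. Of 26 tested, 9 were higher in pancreas and 2 in muscle, with a median log2 difference of 1.18, or 1.17 with the gene at 0 fragments set at its bound. Nkx2-3, a homeobox gene of gut and spleen mesenchyme, was at 152 and 154 CPM in pancreas and at 2 fragments in the muscle libraries together, or 2979 (95% counting interval 824 to 24604) times as high by CPM, with adjusted p = 0.00307. Barx1, a homeobox gene of stomach and spleen mesenchyme, was at 54.8 and 51.3 CPM in pancreas against 0.255 and 0 in muscle (473-fold, log2 8.89 ± 0.88, adjusted p = 0.00324). In adipose FAP+ cells Nkx2-3 was at 0.457 and 0 CPM and Barx1 at 0 and 0.0811, so both were near 0 in the other visceral site sampled.

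Further members of that list divided by whether adipose cells held them too. Tcf21, a bHLH factor of visceral mesenchyme, was at 131 and 110 CPM in pancreas against 0.128 and 0 in muscle, 2351 (95% counting interval 650 to 19419) times the muscle level, with adjusted p = 0.00188, and at 846 and 335 CPM in adipose. Wt1, a zinc finger factor of mesothelium and its derivatives, was at 19.2 and 14.1 CPM in pancreas against 0.0638 and 0.0858 in muscle, a ratio of 216 (95% counting interval 73.7 to 1052), and at 64.3 and 92.6 in adipose. Hand2 was at 25.7 and 19.8 CPM in pancreas against 0 and 0.0858 in muscle, a ratio of 444 (95% counting interval 123 to 3675), and at 0.152 and 0.0811 in adipose. Isl1, a LIM homeobox gene of pancreatic mesenchyme and of islets, was at 9.28 and 13.3 CPM in pancreas against 0.0638 and 0 in muscle, a ratio of 439 (95% counting interval 78.4 to 17390). Wt1 belongs to the mesothelial list and Isl1 to the endocrine list, and the mesothelial list held 8 genes higher in pancreas, as given above, while Isl1 was the 1 endocrine gene called. The part of those cell types in these differences was not tested. The 9 called factors were 0.554 to 1.36 times as high in pancreas 1 as in pancreas 2. This range was not set against that of the mesothelial or endocrine lists.

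Gata6, Meis1 and Nkx3-2 completed the 9, and these 3 are named after their values were seen. Gata6, a zinc finger factor of endoderm and visceral mesoderm, was at 26.7 and 37.2 CPM in pancreas against 7.14 and 3.82 in muscle, Meis1, a Hox cofactor, at 46.7 and 61.9 CPM in pancreas against 11.8 and 15.4 in muscle, and Nkx3-2, a homeobox gene of splanchnic mesoderm, at 3.54 and 6.39 CPM in pancreas against 0.446 and 0.644 in muscle. Osr1 and Hlx, members with high levels that did not pass, had adjusted p of 0.991 and 0.996, with Osr1 at 156 and 125 CPM in pancreas against 170 and 122 in muscle. Higher in muscle were Irx3, an Iroquois factor, at 6.44 and 5.79 CPM in muscle against 0 and 0.156 in pancreas, a ratio of 77.5 (95% counting interval 26.2 to 379), and Lhx2, at 0.702 and 0.472 CPM in muscle and 0 fragments in pancreas, at least 3.76-fold. In the same 4 fits, each without 1 library, 6, 6, 5 and 5 of the 9 calls passed.

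The limb and body-wall factors that passed were all higher in muscle. Of 36 tested, 14 were higher in muscle and 0 in pancreas, with a median log2 difference of -1.30 (-1.16 with 2 genes at their bounds). At an unadjusted p below 0.05 there were 2 higher in pancreas, and DESeq2 called 1. The edgeR fit of only the 4 pancreas and muscle libraries called 2 higher in pancreas and 16 in muscle. Tbx5, the T-box factor of the forelimb field, was at 29.2 and 29.6 CPM in muscle against 0.261 and 0.208 in pancreas (123-fold, log2 -6.94 ± 0.62, adjusted p = 0.00247). Tbx4, its counterpart in the hindlimb field, was at 10.7 and 15.6 CPM in muscle against 0.104 and 0.312 in pancreas (61.6-fold, adjusted p = 0.0031). Both muscle libraries held both genes, far above both pancreas libraries.

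Further called limb factors followed. Tbx15, a T-box gene of limb and skin mesenchyme, was at 27.4 and 29 CPM in muscle against 0.469 and 0.416 in pancreas (63-fold, log2 -5.98 ± 0.36, adjusted p = 0.000719). Shox2, a homeobox gene of the proximal limb, was at 47 and 57 CPM in muscle against 1.67 and 1.71 in pancreas (30.7-fold), and Meox2 at 43.1 and 56.7 CPM in muscle against 5.37 and 6.13 in pancreas (8.68-fold). In adipose these were low as well, with Tbx5 at 0.152 and 0.122, Tbx4 at 0 and 0.0811, Tbx15 at 0.152 and 0.0811 and Shox2 at 0.534 and 0.365 CPM. Of the 36 factors, 8 had a fitted difference above 0, towards pancreas. Among them Hic1, a mesenchymal repressor, was at 707 and 583 CPM in pancreas against 351 and 496 in muscle (adjusted p = 0.516) and Osr2 at 129 and 111 CPM in pancreas against 77.6 and 50.1 in muscle (adjusted p = 0.263), with both pancreas libraries above both muscle libraries. Prrx2, a paired-type factor, did not pass either, at 56.7 and 61.4 CPM in muscle against 39.8 and 28.5 in pancreas (adjusted p = 0.6). With each of the 4 libraries left out in that order, 2, 3, 6 and 4 of the 14 calls passed.

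**Figure D3:**
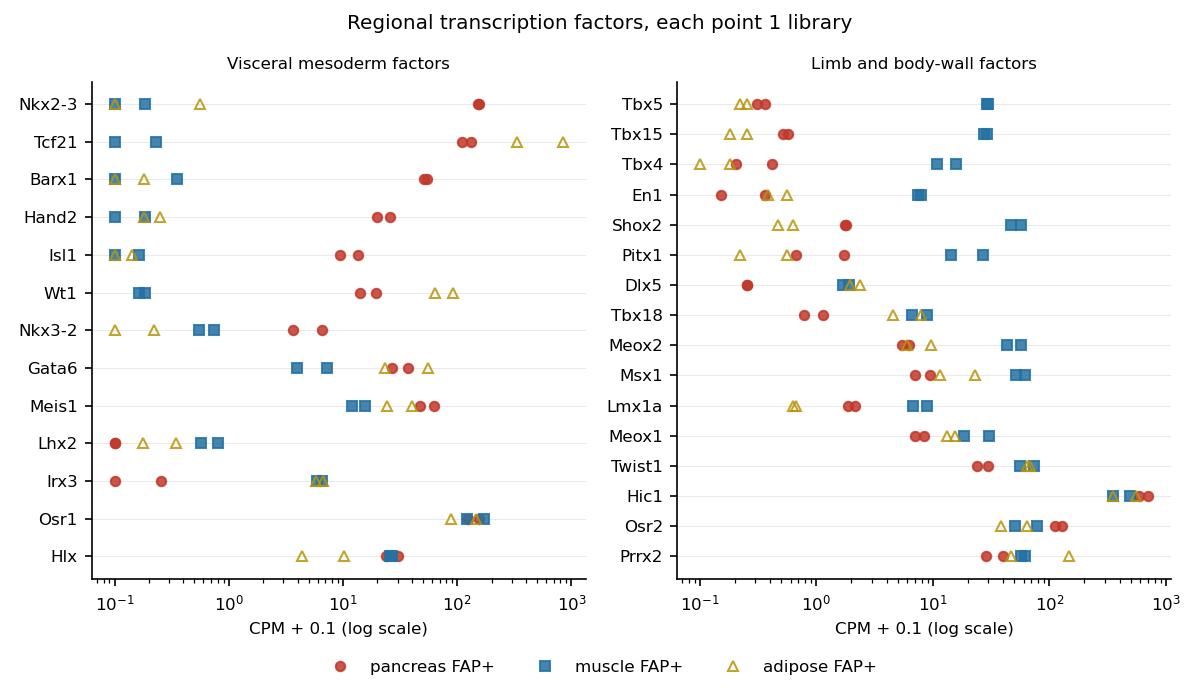
CPM plus 0.1 (log horizontal axis) of the called visceral factors with Osr1 and Hlx (left) and of most of the called limb and body-wall factors with Hic1, Osr2 and Prrx2 (right), each point 1 library of pancreas (red circles), muscle (blue squares) or adipose (open triangles) FAP+ cells. Nkx2-3, Barx1, Hand2 and Isl1 are high in pancreas alone among the 3 tissues plotted, Tcf21 and Wt1 also in adipose, and Tbx5, Tbx15 and Shox2 in muscle.

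The Hox genes that differed did so by cluster and paralog group. Of 35 tested, 8 were higher in pancreas, all of paralog groups 2 to 7, and 7 were higher in muscle, of groups 6 to 10. The pancreas genes lay in clusters A and B, 4 in each, and the muscle genes in clusters A and C, 3 and 4. The list's median log2 difference was -0.34 (-0.39 with 2 genes at their bounds), and it was above 0 with a filter of 5 CPM, in the fit of the 6 FAP+ libraries and with FPKM of 1 or more. Hoxb5 was at 18.6 and 19.3 CPM in the pancreas libraries and 0.702 and 0.601 CPM in the muscle libraries (29-fold, log2 4.86 ± 0.32, adjusted p = 0.000963). Hoxa4 was at 7.45 and 6.7 CPM in pancreas against 0.702 and 0.815 in muscle (9.23-fold) and Hoxb6 at 12.2 and 12.5 CPM in pancreas against 2.42 and 1.89 in muscle (5.74-fold). Hoxa5, Hoxb4 and Hoxa2 were present on both sides and 3.54-fold, 4.06-fold and 4.1-fold higher in pancreas.

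At the other end, Hoxa10 was at 23.4 and 25.4 CPM in muscle against 0.469 and 0.364 in pancreas (57.9-fold, log2 -5.85 ± 0.35, adjusted p = 0.000719). Hoxc9 was at 27.4 and 28.4 CPM in muscle against 0.261 and 0.208 in pancreas (116-fold, adjusted p = 0.00136), and Hoxc10 at 14.5 and 13.7 CPM in muscle with 2 fragments in pancreas, a ratio of 270 (95% counting interval 74.3 to 2232). Hoxa9 was at 6.82 and 8.67 CPM in muscle with 3 fragments in pancreas, a ratio of 102 (95% counting interval 34.4 to 495). Within cluster C the neighbours Hoxc4 and Hoxc5 did not pass (adjusted p = 0.868 and 0.631), while Hoxc6 and Hoxc8 were 8.52-fold and 47.6-fold higher in muscle. Adipose held Hoxc8 at 24.1 and 43.8 and Hoxc9 at 16.5 and 8.52 CPM and Hoxa10 at 0.229 and 0.122. Of the 8 Hoxd genes tested, 0 were called in the main edgeR fit, with 2 at an unadjusted p below 0.05, 0 by DESeq2 and 0 by limma on FPKM. Neighbouring Hox genes overlap antisense transcripts, and no strand setting of the counting is given in the sources used here. Across the 4 fits that leave out a library, in the same order, 1, 1, 1 and 1 of the 8 and 5, 5, 5 and 5 of the 7 calls passed.

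**Figure D4:**
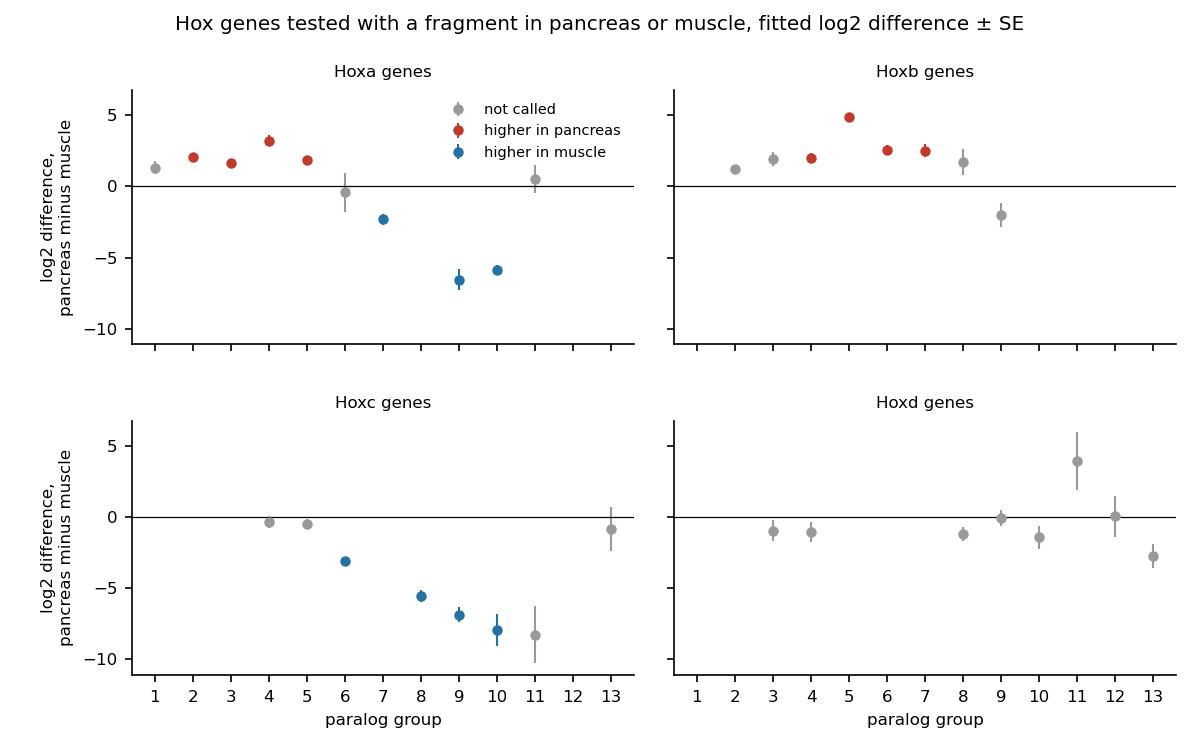
Fitted log2 difference (pancreas minus muscle) ± SE of tested Hox genes with a fragment in either tissue, by paralog group (horizontal axis) in clusters A to D; red was called higher in pancreas, blue higher in muscle, grey not called. In cluster A the sign of the called genes changes between groups 5 and 7, in cluster B every called gene lies above 0 and in cluster C every called gene lies below 0; values with long bars rest on few fragments.

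Many tendon and cartilage genes were higher in muscle FAP+ cells. Of 33 tested, 13 were higher in muscle and 2 in pancreas, with a median log2 difference of -3.24 (-2.58 with 2 genes at their bounds). Thbs4, a thrombospondin of tendon and muscle attachments, was at 242 and 196 CPM in muscle against 2.66 and 4.68 in pancreas (59.6-fold, log2 -5.90 ± 0.38, adjusted p = 0.00086). Comp, cartilage oligomeric matrix protein, was at 119 and 57.9 CPM in muscle against 1.09 and 1.45 in pancreas (69.1-fold, adjusted p = 0.00147). Prg4, the joint lubricant lubricin, was at 967 and 334 CPM in muscle against 9.28 and 7.48 in pancreas (77.6-fold, adjusted p = 0.00354), with muscle 1 well above muscle 2. Kera, keratocan, was at 4.53 and 10.6 CPM in muscle with 2 fragments in pancreas, a ratio of 156 (95% counting interval 42.9 to 1296). Wif1, a secreted Wnt inhibitor, was at 4.72 and 5.06 CPM in muscle and at 0 fragments in pancreas, at least 31.3-fold. The tendon regulators Scx and Mkx, named after their values were seen, did not pass, at 3.13 and 4.55 CPM in muscle against 0.313 and 0.468 in pancreas and 0.319 and 0.644 CPM in muscle against 0.104 and 0.052 in pancreas (adjusted p = 0.0677 and 0.173). Sox6 and Matn2 were higher in pancreas, Matn2, a matrilin, at 80.1 and 94.7 CPM in pancreas against 24.7 and 32.7 in muscle (3.04-fold). When each of the 4 libraries was left out in that order, 3, 2, 7 and 4 of the 13 calls passed.

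The gene with the smallest adjusted p of all was Myoc, which encodes the secreted glycoprotein myocilin. It was at 1764 and 1914 CPM in muscle against 10.4 and 9.77 in pancreas (183-fold higher in muscle, log2 -7.51 ± 0.36, adjusted p = 0.000599), and at 10.5 and 12.2 CPM in adipose. Angptl1, an angiopoietin-like secreted protein, was at 95.5 and 163 CPM in muscle against 1.93 and 2.29 in pancreas (61.1-fold), with both muscle libraries far above both pancreas libraries. Itgb7, an integrin beta chain, was at 98.9 and 50.3 CPM in muscle against 1.36 and 1.3 in pancreas (56-fold). Fgl2, a fibrinogen-like protein, was at 234 and 238 CPM in muscle against 4.64 and 9.98 in pancreas (32.3-fold), and Musk, the kinase of the neuromuscular junction, at 57 and 40.1 CPM in muscle against 4.43 and 2.39 in pancreas (14.2-fold). On the pancreas side, Ptk7, a Wnt co-receptor of planar polarity, was at 52.2 and 69 CPM in pancreas against 1.98 and 3.56 in muscle (21.6-fold).

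Of 166 matrix genes tested in 4 lists, 20 passed (12%, against 3.66% of all genes), 7 higher in pancreas and 13 in muscle; the major collagens and decorin were not among them. Of 33 collagen chains tested, 1 was called, Col22a1 of the myotendinous junction. It was at 3.95 and 1.5 CPM in muscle against 0.208 and 0.156 in pancreas (14.5-fold). In the main edgeR fit and by DESeq2, 0 were called higher in pancreas, with 3 at an unadjusted p below 0.05. The edgeR fit of only the 4 pancreas and muscle libraries called 2 collagen chains higher in pancreas and 4 in muscle. Col1a2 and Col3a1 were at 9889 and 7203 CPM in muscle against 3634 and 4576 in pancreas and at 8012 and 6763 CPM in muscle against 4330 and 4975 in pancreas (adjusted p = 0.206 and 0.632). Dcn, the collagen-binding proteoglycan decorin, was at 16527 and 17985 CPM in muscle against 11081 and 12696 in pancreas (adjusted p = 0.727). Of 51 matrix glycoproteins and microfibril genes 4 were higher on each side. Fbn2, the fibrillin of developing microfibrils, was at 63.4 and 89 CPM in pancreas against 2.1 and 2.4 in muscle (33.6-fold, log2 5.07 ± 0.38, adjusted p = 0.00129), and Spon2 was at 768 and 619 CPM in pancreas against 77.9 and 87.6 in muscle (8.38-fold). Tgfbi was at 308 and 385 CPM in muscle against 46.2 and 36.9 in pancreas (8.33-fold), Ccn5 at 67.2 and 54.3 CPM in muscle against 7.14 and 6.44 in pancreas (8.94-fold) and Thbs2 at 120 and 98.6 CPM in muscle against 13.6 and 22.6 in pancreas (6.03-fold). Of 29 basement membrane genes 2 were higher on each side, Egflam (pikachurin) at 31.9 and 38.9 CPM in pancreas against 1.34 and 2.83 in muscle (16.7-fold) and Ntn1 (netrin-1) at 148 and 146 CPM in muscle against 32.3 and 40 in pancreas (4.07-fold) among them. Of 53 proteases, lysyl oxidases and inhibitors 6 were higher in muscle and 1 in pancreas, with Loxl4 at 45.8 and 28.7 CPM in muscle against 7.77 and 9.77 in pancreas (4.24-fold) and Adamts7 at 13.4 and 13.2 CPM in pancreas against 3.64 and 4.93 in muscle (3.1-fold). Over these 4 lists the median log2 differences were -0.11, -0.08, -0.24 and -0.41.

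Wnt modulators were divided between the tissues. Of 48 tested, 5 were higher in pancreas and 4 in muscle. The agonist Rspo3, which protects Wnt receptors from removal, was at 44.3 and 49.6 CPM in pancreas against 7.84 and 8.45 in muscle (5.75-fold, adjusted p = 0.00655), and its relative Rspo1, also on the mesothelial list, at 30.2 and 23.1 CPM in pancreas against 1.4 and 2.19 in muscle (14.6-fold). The ligand Wnt2b was higher in pancreas, at 6.57 and 10.3 CPM in pancreas against 0.765 and 0.901 in muscle (10-fold), and its close relative Wnt2 in muscle, at 55.7 and 23.5 CPM in muscle against 6.05 and 8.78 in pancreas (5.33-fold). The antagonists also split, with Dkk3 at 24.4 and 33.8 CPM in pancreas against 5.93 and 4.25 in muscle (5.74-fold higher in pancreas) and Dkk2 at 96.8 and 127 CPM in muscle against 15.5 and 17.1 in pancreas (6.85-fold higher in muscle, adjusted p = 0.00528). Nkd1, an intracellular inhibitor that Wnt signalling induces, was 4.59-fold higher in pancreas.

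Of 46 genes of TGF-beta, activin and BMP signalling 1 was higher in pancreas and 3 in muscle. The ligands Bmp3 and Bmp5 were at 9.44 and 4.85 CPM in muscle against 0.73 and 0.676 in pancreas (10.1-fold) and at 7.21 and 20 CPM in muscle against 0.261 and 0.468 in pancreas (37-fold), and the binding protein Bmper was 2.87-fold higher in muscle. Fstl3, an activin-binding protein, was at 10.8 and 11.2 CPM in pancreas against 4.4 and 4.08 in muscle (2.6-fold higher in pancreas). Of 59 growth factor genes 3 were higher in pancreas and 2 in muscle. Slit2, a guidance cue for axons and vessels, was at 25.4 and 33.8 CPM in pancreas against 0.638 and 0.686 in muscle (44.2-fold higher in pancreas, adjusted p = 0.00691), and Robo2, its receptor, at 5.58 and 6.39 CPM in pancreas against 0.319 and 0.644 in muscle (12-fold, adjusted p = 0.00727). Ptn, pleiotrophin, was 6.4-fold and Fgfr3 11-fold higher in pancreas, while Egfr was at 242 and 239 CPM in muscle against 91.5 and 97.3 in pancreas (2.55-fold). Of 25 hedgehog and Notch genes 1 was higher on each side, Heyl in pancreas at 28.1 and 26.6 CPM in pancreas against 3.32 and 6.82 in muscle and Jag2 in muscle with 1 fragment in pancreas, a ratio of 42.4 (95% counting interval 7.21 to 1713). Of 43 neural adhesion genes 3 were higher in pancreas, with Ephb2 at 39.1 and 30.8 CPM in pancreas against 6.12 and 5.41 in muscle, and 2 in muscle, with Plxdc1 at 18.4 and 27.9 CPM in muscle against 1.98 and 1.82 in pancreas.

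Most of the chemokine and cytokine genes that passed were higher in muscle. Of 53 chemokine, cytokine and receptor genes 10 were higher in muscle and 2 in pancreas, with a median log2 difference of -0.51. Il1r2, the decoy receptor of interleukin-1, was at 288 and 99.1 CPM in muscle against 1.3 and 0.831 in pancreas (180-fold, log2 -7.49 ± 1.29, adjusted p = 0.0236), with the muscle libraries far apart. Ccl7, a chemokine for monocytes, was at 213 and 111 CPM in muscle against 31.9 and 30.6 in pancreas (5.19-fold). Cxcl14 was at 314 and 587 CPM in muscle against 82.1 and 90.2 in pancreas (5.23-fold). Cxcl10, an interferon-induced chemokine for T cells, was at 92.8 and 84.2 CPM in muscle against 26.7 and 18.9 in pancreas (3.88-fold), and Cxcl13, a chemokine for B cells, at 43.4 and 11.6 CPM in muscle against 3.13 and 2.29 in pancreas (10.1-fold). Ccl7, Cxcl1 and Cxcl2 were higher still in adipose, at 1314 and 729, 1021 and 1271 and 32.4 and 46.9 CPM. Ccl11, eotaxin, did not pass at 293 and 326 CPM in pancreas against 291 and 252 in muscle (adjusted p = 0.933). Higher in pancreas were Ackr4, a chemokine scavenger, at 14.5 and 28.1 CPM in pancreas against 3.19 and 3.26 in muscle (6.59-fold), and Tnfrsf11b, osteoprotegerin, at 5.52 and 7.53 CPM in pancreas against 0.446 and 0.515 in muscle (13.3-fold). Of 27 complement and pattern recognition genes 2 were higher in muscle and 0 in pancreas in the main edgeR fit. Among the 2 was the pentraxin Ptx3, at 668 and 463 CPM in muscle against 47.5 and 72.6 in pancreas (9.41-fold, adjusted p = 0.007). DESeq2 called 0 higher in pancreas, and 0 were so at an unadjusted p below 0.05. The edgeR fit of only the 4 pancreas and muscle libraries called members on both sides, most of them higher in muscle. Of 36 MHC class I and interferon genes 1 was higher on each side. In the reduced fits, without pancreas 1, pancreas 2, muscle 1 or muscle 2, 0, 0, 0 and 2 of the 10 calls passed.

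Most of the heat shock genes on the response list were higher in muscle, while no Fos, Jun or Egr gene passed in the main edgeR fit. Of 47 genes that rise during tissue dissociation, 12 were higher in muscle and 0 in pancreas (1 in pancreas at an unadjusted p below 0.05, by DESeq2 and by limma), with a median log2 difference of -0.69. Among the 12 were 6 of the 7 heat shock members. The chaperone genes Hspa1a and Hspa1b were at 3577 and 2865 CPM in muscle against 162 and 234 in pancreas (16.3-fold, adjusted p = 0.0147) and at 2566 and 2326 CPM in muscle against 103 and 142 in pancreas (19.9-fold, adjusted p = 0.00914), and Hsph1, their nucleotide exchange partner, at 217 and 182 CPM in muscle against 42.4 and 21.7 in pancreas (6.23-fold). Tnfaip3, the feedback inhibitor A20, was at 115 and 128 CPM in muscle against 23.3 and 24.6 in pancreas (5.07-fold, log2 -2.34 ± 0.26, adjusted p = 0.00514), Ier3 at 221 and 230 CPM in muscle against 45.9 and 34.8 in pancreas (5.59-fold) and Nr4a2, an orphan receptor, at 47.5 and 71 CPM in muscle against 9.33 and 14 in pancreas (5.08-fold). Fos was at 5420 and 5548 CPM in pancreas against 4644 and 6169 in muscle (adjusted p = 0.999) and Junb at 2859 and 3348 CPM in pancreas against 3104 and 2870 in muscle (adjusted p = 0.996). Taking the 14 Fos, Jun, Egr, Ier2, Atf3 and Nr4a1 genes together, a grouping made after values were seen, 0 were called in the main edgeR fit. Among them 3 had an unadjusted p below 0.05, 3 were called by DESeq2 and 1 by limma on FPKM. The grouping left out other members of the list that were called higher in muscle, Ier3 and Nr4a2 among them. The median log2 difference of the 14 was 0.08, against -2.64 for the 7 heat shock genes. These counts and medians depend on which members were grouped. Whether dissociation of the organs differed was not tested. In the 4 fits without pancreas 1, pancreas 2, muscle 1 and muscle 2, 0, 0, 1 and 0 of the 12 calls passed.

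Promoters are shown for 3 of the heat shock genes, which moved together, and for 3 other called genes that hold an NF-kB site form. Each line gives the 250 bases before the start of transcription, 5′ to 3′ on the gene's strand, from RefSeq on GRCm38.p6. In the first 3, capitals mark GAANNTTC or TTCNNGAA, an inverted pair of the units that make up a heat shock element.
Hspa1a (chr17:34972157-34972406, minus strand): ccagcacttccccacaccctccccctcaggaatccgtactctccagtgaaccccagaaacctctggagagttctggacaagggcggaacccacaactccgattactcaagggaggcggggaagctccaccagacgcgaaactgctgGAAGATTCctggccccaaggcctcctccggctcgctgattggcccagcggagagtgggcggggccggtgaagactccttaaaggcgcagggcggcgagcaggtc
Hspa1b (chr17:34959239-34959488, minus strand): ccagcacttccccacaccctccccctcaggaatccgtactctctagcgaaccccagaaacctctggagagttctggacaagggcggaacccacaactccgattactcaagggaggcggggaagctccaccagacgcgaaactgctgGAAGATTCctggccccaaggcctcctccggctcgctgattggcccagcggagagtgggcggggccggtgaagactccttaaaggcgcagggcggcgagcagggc
Hspb1 (chr5:135887669-135887918, plus strand): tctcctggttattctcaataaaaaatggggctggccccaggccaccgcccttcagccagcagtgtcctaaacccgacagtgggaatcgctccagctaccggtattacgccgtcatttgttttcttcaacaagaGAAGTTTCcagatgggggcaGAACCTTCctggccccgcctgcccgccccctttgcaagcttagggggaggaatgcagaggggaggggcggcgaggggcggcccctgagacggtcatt
In the next 3, capitals mark GGANTTTCC on either strand, a form of the NF-kB site.
Tnfaip3 (chr10:19015411-19015660, minus strand): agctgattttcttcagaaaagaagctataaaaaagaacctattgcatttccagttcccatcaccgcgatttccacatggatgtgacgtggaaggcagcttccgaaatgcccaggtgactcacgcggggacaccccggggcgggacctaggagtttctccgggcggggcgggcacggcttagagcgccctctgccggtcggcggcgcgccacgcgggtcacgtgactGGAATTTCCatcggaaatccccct
Ier3 (chr17:35821463-35821712, plus strand): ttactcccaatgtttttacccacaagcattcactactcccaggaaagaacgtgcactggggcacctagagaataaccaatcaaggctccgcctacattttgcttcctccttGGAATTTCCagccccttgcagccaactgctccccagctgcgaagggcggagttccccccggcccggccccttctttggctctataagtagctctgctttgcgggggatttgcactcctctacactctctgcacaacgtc
Cxcl10 (chr5:92348890-92349139, minus strand): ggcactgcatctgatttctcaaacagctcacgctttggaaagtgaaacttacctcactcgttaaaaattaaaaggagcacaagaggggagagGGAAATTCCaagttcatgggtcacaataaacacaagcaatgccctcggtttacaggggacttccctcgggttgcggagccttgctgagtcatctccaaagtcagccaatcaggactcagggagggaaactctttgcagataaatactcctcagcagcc

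Hspa1a and Hspa1b differ at 3 of these 250 bases, and as near-identical copies they can share reads, so their separate counts are uncertain. Their pair of heat shock units begins 104 bases before the start in both, and Hspb1 has 2 pairs, at 117 and 97 bases. Of the 6 heat shock genes higher in muscle, 5 had a promoter in the table and 4 of these held the pair. So did 14.7% of all 25748 genes with a promoter outside X and Y, and 12.2% of the 11101 tested genes among them. Dnajb1, at 328 and 330 CPM in muscle against 118 and 124 in pancreas, did not have these letters in the window. The NF-kB form begins 24 bases before the start in Tnfaip3, 139 in Ier3 and 158 in Cxcl10. It was present for 6 of the 14 other chemokine and response genes higher in muscle that had a promoter, and the other 8 lacked these letters. Of all genes with a promoter, 1.27% had it, and of the 11101 tested ones 1.41%. The remaining promoters with the form were those of Cxcl1, Cxcl2 and Nfkbia, at 767 and 508 CPM in muscle against 213 and 242 in pancreas, at 24.9 and 12.8 CPM in muscle against 3.49 and 5.14 in pancreas and at 798 and 658 CPM in muscle against 212 and 231 in pancreas. The motifs were chosen with the results known, and a match is a description of the letters. Both list counts took only members called higher in muscle. Members that were not called or were higher in pancreas were not counted, so the shares cannot be tied to the difference between tissues.

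**Figure D5:**
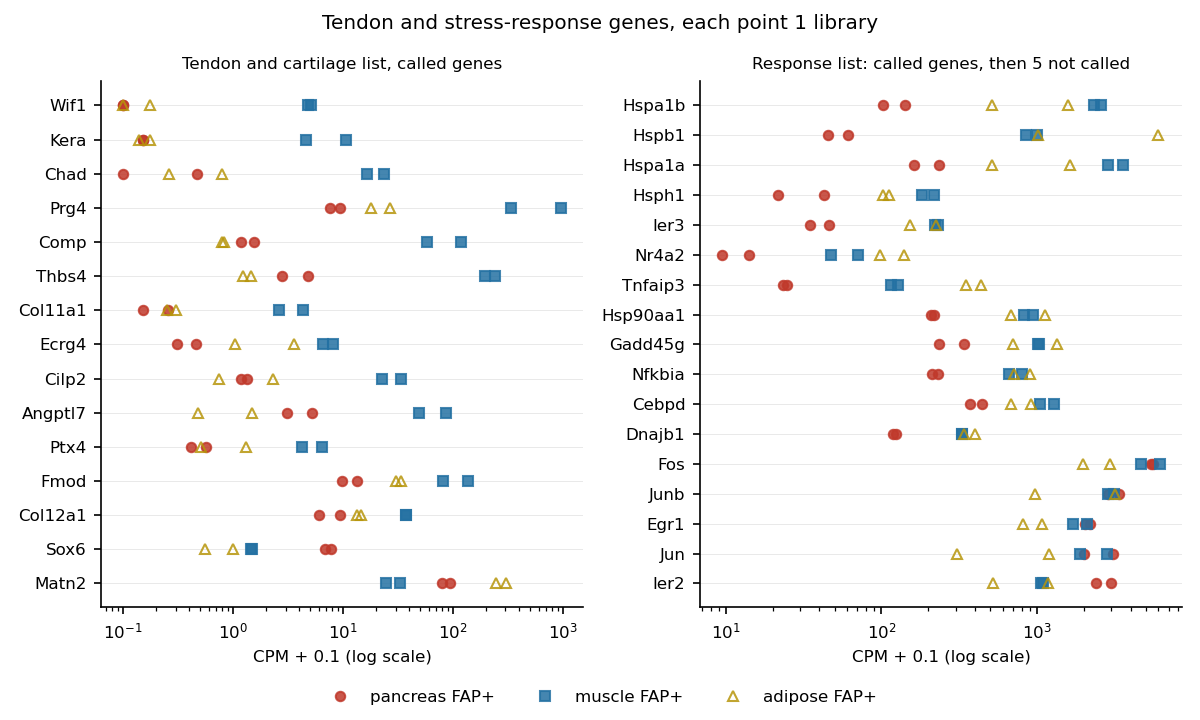
CPM plus 0.1 (log horizontal axis) of the called tendon and cartilage genes (left) and of the called response genes followed by Fos, Junb, Egr1, Jun and Ier2, which were not called (right); each point is 1 library of pancreas (red circles), muscle (blue squares) or adipose (open triangles) FAP+ cells. Muscle lies above pancreas for all called genes but Sox6 and Matn2, adipose lies nearer to muscle than to pancreas for most response genes, and the early growth genes at the bottom overlap or lie close together except Ier2.

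Lipid, detoxification and prostanoid genes differed in both directions. Of 37 adipogenic and lipid genes 3 were higher in pancreas and 4 in muscle. Pparg, the regulator of fat cell formation, was at 13.5 and 13.4 CPM in pancreas against 3.32 and 5.41 in muscle (3.06-fold), and Pltp, the phospholipid transfer protein, at 48.5 and 57.4 CPM in pancreas against 7.84 and 6.56 in muscle (7.35-fold, adjusted p = 0.00514). Apod was at 225 and 276 CPM in muscle against 21.1 and 30.7 in pancreas (9.69-fold higher in muscle), and Cd36, a fatty acid receptor also of vessels, at 11.4 and 42.8 CPM in muscle against 0.73 and 0.935 in pancreas (32.4-fold), with muscle 2 above muscle 1 as for Flt1; the part of vessel cells in it was not tested. Of 41 detoxification genes 5 were higher on each side. Cyp4b1 was at 37.7 and 40.8 CPM in pancreas against 2.68 and 4.42 in muscle (11-fold, adjusted p = 0.00493) and Gsta3 at 38.5 and 40.3 CPM in pancreas against 5.55 and 5.66 in muscle (7.02-fold), while Adh7 was at 15 and 6.56 CPM in muscle against 0.0521 and 0.208 in pancreas (79.3-fold) and Hmox1, haem oxygenase, at 70.9 and 70.7 CPM in muscle against 12.7 and 13.4 in pancreas (5.44-fold). Among 19 prostanoid genes the receptors Tbxa2r and Ptger3 were at 20 and 19.4 CPM in pancreas against 1.91 and 2.23 in muscle (9.45-fold, adjusted p = 0.00249) and at 8.55 and 8.31 CPM in pancreas against 1.15 and 1.03 in muscle (7.73-fold), and the inducible synthase Ptgs2 was at 314 and 218 CPM in muscle against 31.3 and 49.2 in pancreas (6.61-fold higher in muscle). Of 37 fibroblast subset genes 4 were higher in muscle, with Mme (CD10) at 11.7 and 22.2 CPM in muscle against 0.625 and 0.831 in pancreas (23.2-fold) and Nt5e (CD73) at 7.59 and 5.11 CPM in muscle against 0.208 and 0.26 in pancreas (26.4-fold), and 1 in pancreas, Ly6h.

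The cell cycle and glycolysis lists gave no calls in the main edgeR fit, and the glycolysis and contractile lists depended on the test. Of 28 cell cycle genes 0 were called by edgeR or DESeq2, with 3 at an unadjusted p below 0.05, and Pcna was at 46.3 and 46.2 CPM in muscle against 25.6 and 35.8 in pancreas. Of 30 glycolysis and hypoxia genes 0 were called in the main edgeR fit and 3 by DESeq2, with 3 at an unadjusted p below 0.05. With upper quartile scaling or no low-count filter, edgeR called 1 of them higher in muscle. With only the 4 pancreas and muscle libraries it called 2 higher in pancreas and 1 in muscle. Aldoa was at 1555 and 1346 CPM in pancreas against 1518 and 1398 in muscle. Of 28 contractile genes 1 was higher in pancreas, Cnn2, a calponin, at 103 and 93.8 CPM in pancreas against 42.5 and 32.2 in muscle (2.63-fold). At an unadjusted p below 0.05 there were 7 contractile genes higher in pancreas and 2 in muscle, DESeq2 called 6 and 0, and the fit of only the 4 pancreas and muscle libraries called 8 and 2. A call that is missing here does not show equal levels, since the smallest fold among all called genes was 2.17.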

How the data were processed

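RNA-seq of 8 libraries in 4 groups was used, with 2 libraries per group; T cell data of the series and 6 other columns of per-sample values were not used here. Per the labels, RNA was prepared with Purelink kits and amplified with MessageAmp, which copies from the poly(A) tail and so favours 3′ ends. Among tools, edgeR, HTSeq, TopHat2 and Bowtie2 are listed in the submitters' processing notes, with the mm9 build; the program behind the bias adjustment and the strand setting are not given in the sources used here. The authors deposited bias-adjusted estimated counts of fragments with FPKM per gene, and a separate table of RPKM.

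The estimated counts were rounded and fitted with edgeR 4.0.16 (R 4.3.3), with TMM scaling, its expression filter, all 8 libraries in one quasi-likelihood model and the contrast pancreas minus muscle. p-values were adjusted by the Benjamini-Hochberg method over all 14847 genes tested, and genes of X and Y were then left out of every count and name. The common biological coefficient of variation was 33.2%, on 4 residual degrees of freedom. CPM uses the same scaling; SE is of the log2 difference. Where the lower group had 1 to 3 fragments, the ratio has an exact counting interval, and with 0 it is a bound at 3 fragments per library; both cover counting error only. Alternatives were other scalings and filters, DESeq2 1.42.0, limma 3.58.1 on the deposited FPKM, whole reads recovered from the deposited RPKM (21673 genes, within 0.01 of a whole number), other sets of libraries, a replicate block and leaving out each library. The code was tested on simulated data.

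Symbols matched current names for 19166 genes and older names for 2131; 259 stayed unmatched. Named were Fap, Dpp4, the 15 genes with the highest and the 15 with the lowest ratio of CPM + 1 among called genes of at least 10 CPM, up to 6 called members per direction and 3 not called of each gene list, and the 2 highest members of each marker list. Outside that rule, and with values seen, are Lrat, Gfap, Des, Cygb, Gcg, Ins2, Flt1, Plvap, Acta1, Actn3, the satellite cell factors, Ptprc, Gata6, Meis1, Nkx3-2, Scx, Mkx, Cxcl1, Cxcl2, Nfkbia and Dnajb1. Members and lists were chosen with earlier results of these data known. A few genes that the rule names are not reported here.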

Additional observations from a re-analysis of the deposited data

How the results depend on the processing

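No call of the 525 reversed under any alternative run. The counts, as all calls with those higher in pancreas and in muscle, were 976 (429 and 547) with DESeq2, 1689 (748 and 941) with only the 4 pancreas and muscle libraries, 331 (134 and 197) with the 6 FAP+ libraries, 205 (84 and 121) against a 2-fold change and 835 (355 and 480) on recovered reads. With limma, calls higher in muscle were 199 with FPKM + 1, 182 with FPKM + 0.1 and 184 with a minimum of 1 FPKM. Leaving out 1 library gave 54 to 1166 calls, 17 to 515 higher in pancreas and 27 to 654 higher in muscle. Other scalings and count filters kept all 3 counts within 1.5 times. Of the 525, 512 were also called by DESeq2, 524 with the 4 libraries and 315 with the 6. With limma, 256 of the 525 were kept with FPKM + 1, 242 with FPKM + 0.1 and 287 with a minimum of 1 FPKM. The test against a 2-fold change kept 205. For the named genes, 4135 of 5082 gene and alternative pairs kept their direction and call, 764 lost the call and 183 gained one. The cause of these shifts was not tested.

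With a replicate block there were 455 calls in all 8 libraries and 2033 (910 and 1123) in the 4. The labels do not say that a number is a shared experiment, and the deviations of same-numbered pancreas and muscle libraries correlated at -0.0109 across genes, so pairing by number was not established. With 2 libraries a group and a common variation of 33.2%, the smallest called difference was 2.17-fold.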
